A study of Mus musculus with 76 samples.

Results

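The cells described here are the wild-type cells sampled as MGE-derived interneurons of dorsal hippocampal CA1 in newborn mice, 28 of the 76 cells that the series labels. By the markers and the detection limit given below, 25 of them had Lhx6 and a GAD gene, and WT male cells 12 and 16 and WT female cell 7 did not. They were taken as every cell with wild-type gephyrin that carries no contamination mark and passed the submitters' quality filter: 9 from females and 19 from males, all at postnatal day 4. Of 29 unmarked wild-type cells, 1 male cell did not pass that filter, and 5 further wild-type cells marked as contaminated were left aside. The cells were sampled by Patch-seq, in which a neuron is recorded in an acute slice and its contents are drawn into the patch pipette. The RNA was then sequenced as a Nextera XT library. All 28 cells carried Nkx2.1 Cre and the Ai14 tdTomato reporter, and were untreated. Reporter-positive cells in the pyramidal layer were chosen because that choice enriches putative parvalbumin basket cells, so the sample is not a survey of all CA1 interneurons. The reporter marks cells whose precursor made Nkx2-1, the gene of the medial ganglionic eminence (MGE), and stays on after the gene itself is silent. Each sample is 1 cell, and no animal, litter or slice is named. Cells were therefore not treated as replicates, no groups were compared by a test, and ranges across cells describe these cells only. WT female and WT male values are given side by side on the same terms.

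MGE interneurons are born in the ventral forebrain, migrate into the hippocampus before birth and become parvalbumin, somatostatin or ivy and neurogliaform cells. The transcription factor Lhx6 is switched on as they leave the cell cycle and is kept into adulthood. GABA is made from glutamate by GAD67 and GAD65, encoded by Gad1 and Gad2, and neuropeptide Y (Npy) is carried by many hippocampal cells of this origin. In the days after birth such neurons still grow axons, gain synapses and shift from depolarizing to hyperpolarizing GABA responses, and some of them die.

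A cell held 3543753 to 10359434 counts, with a median of 6450036. A gene was taken as found in a cell at 10 CPM (counts per 1000000 of the cell's total). By that measure a cell had 1499 to 7422 genes and a median of 4179. The 9 WT female cells ranged from 1499 to 6011 with a median of 4462, and the 19 WT male cells from 1769 to 7422 with a median of 4117, so the groups overlapped almost completely. Over the 28 cells the number of genes and the log2 depth had a Pearson r of 0.0295 and a Spearman rho of 0.0323, and r was -0.00736 without the 2 cells farthest from the median depth. Both measures come from the same library, and the pooled correlation mixes the run of deep cells named next with the rest. It does not show that the number of genes found is unrelated to depth within either set. The 5 cells under 2500 genes were WT female cells 7, 8 and 9 and WT male cells 16 and 20. They lie in a single run of the label order, WT male cells 16 to 20 followed by WT female cells 7 to 9. Every cell of that run had 7322519 counts or more, and its WT male cells 17, 18 and 19 had 4117, 4241 and 7422 genes. Every cell outside the run had 2874 genes or more. The labels name no batch, and whether the run differs for a technical reason was not tested. In the paragraphs below, shares of cells have exact (Clopper-Pearson) 95% intervals, which cover counting error only.

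The 4 markers of the labelled cell type were each found in most of the cells. Lhx6 (chromosome 2, 36081953 to 36105408, GRCm38) reached 10 CPM in 26 of 28 cells, 92.9% (interval 76.5 to 99.1%). Its level was lowest at 2.67, median 512 and highest at 1247 CPM in the female cells, and 2.55, 253 and 1628 CPM in the male cells. Only WT female cell 7 and WT male cell 12 lay under the limit, and the male median was lower inside a wider range. Gad1 (chromosome 2, 70553072 to 70602014) was also found in 26 cells, at 380, 569 and 1086 CPM (lowest, median, highest) in females and 7.10, 408 and 1382 CPM in males. The 2 cells under the limit were WT male cells 12 and 16, at 8.24 and 7.10 CPM. WT male cell 15 lay just above it at 11.5 CPM, and every female cell had 380 CPM or more.

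Gad2 (chromosome 2, 22622205 to 22693874) was found in fewer cells, 19 of 28 (67.9%, interval 47.6 to 84.1%), all of which also had Gad1. Its levels were 1.84, 54.4 and 458 CPM in females and 2.16, 161 and 790 CPM in males. The 9 cells under the limit lay between 1.84 and 5.37 CPM and the next cell at 48.0 CPM, so the values fell into a low and a high set with a gap between them. Npy (chromosome 6, 49822710 to 49829507) was found in 25 cells (89.3%, interval 71.8 to 97.7%), at 5.77, 384 and 1015 CPM in females and 1.78, 222 and 2915 CPM in males. Per transcript length Npy had the highest level of the 4, with a median of 859 TPM (transcripts per 1000000, a unit that corrects for length) against 197 for Gad1, 156 for Lhx6 and 41.2 for Gad2. It was also the most uneven: its coefficient of variation over cells (CV, the standard deviation divided by the mean CPM) was 1.48, against 0.683 for Gad1, 0.860 for Lhx6 and 1.06 for Gad2. WT male cell 20 alone held 26.9% of the Npy CPM of the 28 cells.

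**Figure D1:**
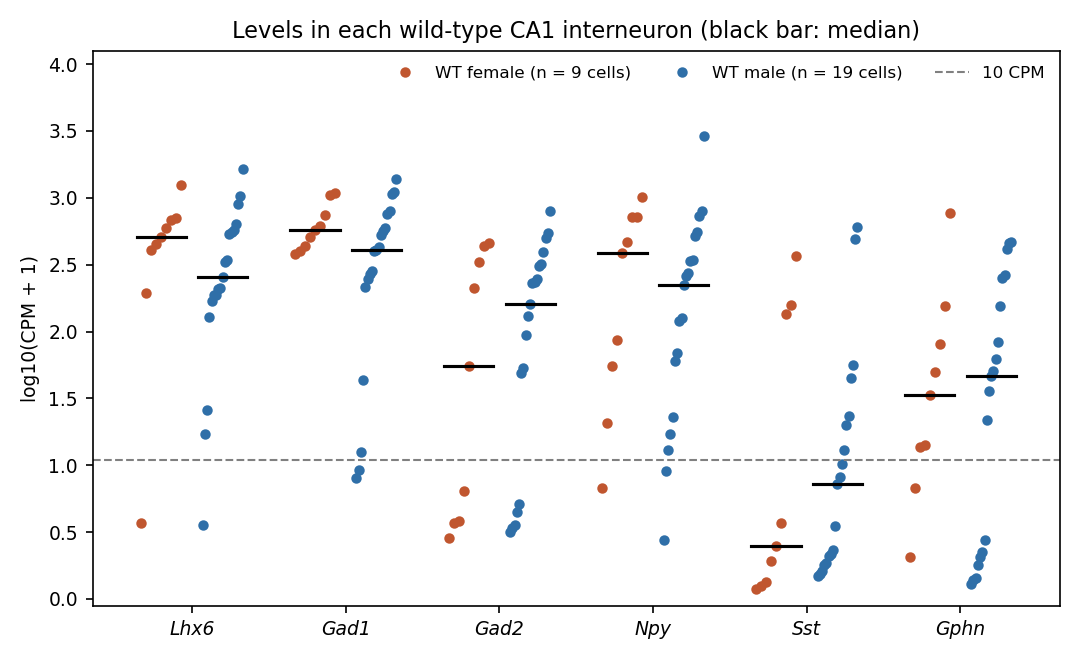
Level of Lhx6, Gad1, Gad2, Npy, Sst and Gphn in each cell, as log10(CPM + 1), with female cells in orange, male cells in blue, a black bar at each group's median and a dashed line at 10 CPM. Gad2 has a gap at the line, from 5.37 to 48.0 CPM, while Gad1, Npy, Sst and Gphn have cells close to it on both sides. For Lhx6 2 cells fall below it, and for Gad1 2.

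All 4 markers were found together in 16 cells (57.1%, interval 37.2 to 75.5%), 4 female and 12 male. A further 9 cells had 3 of them, WT male cell 16 and WT female cell 7 had 2, and WT male cell 12 had 1. At least 1 of the GAD genes was found in 26 cells, and Lhx6 together with a GAD gene in 25. Both counts include WT male cell 15, with Gad1 at 11.5 CPM and Gad2 at 2.16 CPM. WT male cell 12, the one with Npy as its only marker (12.1 CPM), also had the highest Cck and Grin2b levels of the 28, at 1785 and 842 CPM.

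Ubb, Npy and Apoe are shown by their promoters because they stand for the 3 kinds of gene met here: even in all cells, a marker with uneven levels, and a gene among the most uneven for its level. The letters are the 100 bases before the transcription start in the RefSeq table for GRCm38.p6, 5′ to 3′ on the gene's strand, with each CG dinucleotide in capitals.
Ubb: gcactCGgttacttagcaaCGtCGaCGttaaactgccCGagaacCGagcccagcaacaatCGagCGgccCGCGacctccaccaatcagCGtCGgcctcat
Npy: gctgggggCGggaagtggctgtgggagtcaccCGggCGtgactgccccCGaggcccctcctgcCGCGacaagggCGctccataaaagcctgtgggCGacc
Apoe: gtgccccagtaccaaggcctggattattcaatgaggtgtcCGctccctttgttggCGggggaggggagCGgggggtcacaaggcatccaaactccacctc
They lie at chr11:62551071-62551170 (plus strand), chr6:49822610-49822709 (plus strand) and chr7:19699189-19699288 (minus strand). In the table's full windows, from 250 bases before to 50 after the start, Ubb had 33 CG, Npy 24 and Apoe 10. Of all promoters in the table, 8.56% had as many CG as Ubb or more, 20% as many as Npy or more and 43.5% as many as Apoe or more. The table has 2 entries for Ubb, 1 for Npy and 3 for Apoe, and the first entry of each gene was taken. These are descriptions of 3 windows, and the other starts of Ubb and Apoe are not described. A comparison of promoters between widely and rarely found genes is void here, since fewer than 80% of the genes of each class had an entry.

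The transcription factors that carry the MGE programme were found unevenly. Of 14 on the list, 7 reached 10 CPM in 14 cells or more (50%), where 9.13% of all gene rows and 14.7% of protein-coding rows did. After Lhx6, Zeb2, which directs migration of these cells, was found in 23 cells, and Dlx1 and Maf in 18 each. Dlx2 was found in 16 cells. Dlx1 lay at 2.68, 207 and 821 CPM in females and 1.67, 36.6 and 565 CPM in males, and at least 1 Dlx gene was found in 23 cells. Dlx1 and Dlx2 were found together in 12 cells. Maf, which acts in the maturation of MGE interneurons, was found in 8 of 9 female and 10 of 19 male cells, with medians of 96.2 and 12 CPM, and the ranges overlapped (1.2 to 233 and 1.07 to 417 CPM).

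Nkx2-1, Sox6, Satb1 and Lhx8, on the same list, were rarer. Nkx2-1, whose Cre marks the lineage, was still found in 7 cells (25%, interval 10.7 to 44.9%), and its highest value was 122 CPM. All 7 had Lhx6, as did 26 of all 28 cells. Sox6 and Satb1, which act after Lhx6 in cells settling in the cortex, were found in 9 cells each. Lhx8, kept by striatal and cholinergic cells of MGE origin, reached 10 CPM in none of the 28 (interval 0 to 12.3%).

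Subtype markers divided the cells further. The peptide gene Cck was found in 25 cells, at 29.1, 455 and 1336 CPM in females and 5.64, 535 and 1785 CPM in males, and its median of 1424 TPM was above that of Npy. Of these cells 23 also had Lhx6 and 2 did not. The highest value was that of WT male cell 12, which had neither Lhx6 nor a GAD gene at the limit. Cck is therefore not read here as a mark of MGE origin, and the source of its transcripts was not tested. Nxph1, a neurexin ligand of MGE interneurons, was found in 20 cells with a median of 123 TPM. Tac1, the substance P precursor, was found in 13 cells, Pnoc in 12, Cort in 11, and Sst, Reln and Calb1 in 10 each. Sst, the somatostatin gene, lay at 0.193, 1.51 and 365 CPM in females (3 of 9 cells found) and 0.485, 6.27 and 609 CPM in males (7 of 19). Of the Sst cells, 9 also had Npy, as did 25 of all 28 cells, while 5 had Cort, 5 had Calb1 and 4 had Tac1. Nos1, the enzyme of nitric oxide synthesis in ivy and neurogliaform cells, was found in 6 cells, all of them male. All 6 had Npy, which is near the share over all cells, and in WT male cells 12 and 9 Npy was only 12.1 and 21.8 CPM. Nos1 had at most 0.632 CPM in the 9 female cells and up to 626 CPM in males, and with animals unnamed this difference was not tested.

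Counted over Sst, Tac1, Nos1, Reln and Calb1, 3 cells had none, 10 had 1, 7 had 2, 7 had 3 and 1 had 4. Thus 15 of the 28 cells had more than 1 of these genes. Some of these values lay just over the limit. Calb1 was 10.1 to 19.4 CPM in WT female cells 4 and 7 and WT male cells 3, 9 and 15. Tac1 was 13.9 CPM in WT male cell 10, Sst 12.1 CPM in WT male cell 12 and Reln 14.8 CPM in WT female cell 9. The count was not repeated at a higher limit. Pvalb, the calcium-binding protein of mature basket cells, was below 1 CPM in every cell (highest value 0.379 CPM) and had no count in 27 of them. Pthlh, an early gene of the parvalbumin branch, was likewise found in none (interval 0 to 12.3% for both). Of 12 markers of interneurons from the caudal eminence, 0 reached 14 cells. Prox1, Htr3a and Sncg were found in none, Vip in 1 cell (288 CPM), and Cnr1, the CB1 receptor gene, in 12.

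Of 8 genes for GABA synthesis, loading and uptake, 4 were found in 14 cells or more (50%, against the same 9.13% and 14.7%). Slc32a1, the vesicular transporter that loads GABA, was found in 10 cells and never exceeded 94.3 CPM, in WT male cell 3. Abat, which breaks GABA down, was found in 14 cells.

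Of 16 GABA-A receptor subunits, 6 were found in 14 cells or more (37.5%, background as above). Among them were Gabra5 in 19 cells, Gabrg3 in 17 and Gabra2 in 16. Gabra5, the alpha subunit typical of extrasynaptic receptors in hippocampus, had a median of 88.3 TPM. It was found in 4 of 9 female cells (0.772, 2.27 and 290 CPM) and 15 of 19 male cells (2.73, 234 and 1038 CPM), with overlapping ranges. Counting alpha subunits per cell, 4 cells had none at 10 CPM, 6 had 1, 9 had 2, 5 had 3 and 4 had more. Gabra6, Gabre, Gabrp and Gabrq were found in none. Glrb, the glycine receptor subunit that binds gephyrin, was found in 22 cells, while of the 4 alpha subunits Glra2 was found in 6, Glra3 in 1 and Glra1 and Glra4 in none.

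Gphn, the scaffold gene that differs between the study's genotypes and is wild-type in all these cells, was found in 19 of 28 (67.9%, interval 47.6 to 84.1%). Its levels were 1.05, 32.5 and 768 CPM in females and 0.297, 45.7 and 464 CPM in males. With a CV of 1.56 it varied close to other genes of its mean level (1.15 times their median CV). Of 13 inhibitory postsynaptic genes 5 reached 14 cells (38.5%): Gphn, the cleft adhesion genes Nlgn2 (14 cells) and Nlgn3 (18), the receptor partner Lhfpl4 (15) and Clptm1 (17).

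The chloride extruder KCC2 (Slc12a5) was found in 14 cells and the chloride importer NKCC1 (Slc12a2) in 6, with 3 cells having both and 11 neither. Slc12a5 was found in 7 of 9 female and 7 of 19 male cells, at medians of 29.9 and 5.11 CPM, inside overlapping ranges (0 to 127 and 0 to 187 CPM). Wnk1, a kinase that regulates both, was found in 20 cells and Wnk2 in 18.

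Glutamate receptor genes were led by auxiliary and early subunits. Of 15 AMPA receptor genes, 9 reached 14 cells (60.0%). Cnih2, an auxiliary subunit that aids AMPA receptor export and slows their gating, was found in all 28 cells, as 0.578% of gene rows were (172, 517 and 850 CPM in females; 90.0, 461 and 1766 CPM in males). Gria1 was found in 25 cells, Gria2 in 24, Gria4 in 21 and Gria3 in 17, and 22 cells had both Gria1 and Gria2. Gria2 makes the receptor impermeable to calcium, and its median was 83.4 TPM against 103 for Gria1 and 56.2 for Gria4. Among 7 NMDA subunits, Grin2b, which dominates early in development, was found in all 28 cells (median 344 TPM), the obligatory Grin1 in 18 (10.9 TPM) and the later subunit Grin2a in 9. The kainate receptor genes were sparser, with Neto2 in 19 cells, Grik5 in 16 and Grik2 in 13.

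Of 9 sodium channel genes, 5 reached 14 cells (55.6%), among them Scn3b (21 cells), Scn8a (19), Scn2a (17) and Scn1a (16). Scn8a and Scn2a are sodium channels of the axon initial segment, and Scn1a prevails in mature fast-spiking cells. Potassium channel genes were found in fewer cells, 6 of 24 reaching 14 (25%). Kcnd2, the pore of the A-type current, was found in 19, and its partners Dpp6 and Kcnip1 in 16 and 15. The fast delayed-rectifier genes Kcnc1 and Kcnc2, which let adult basket cells fire rapidly, were found in 13 and 12 cells, 7 of which had both. Kcna1, which shapes the adult axon, was found in none. Of 15 calcium channel genes 6 reached 14 cells, among them Cacna1b and Cacna1g in 18 cells each and Cacna1a in 17. Of 9 HCN and two-pore genes, Kcnk2 alone did, with 14 cells. That is 11.1%, near the 9.13% of all gene rows and below the 14.7% of protein-coding rows.

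Next to the 4 markers and the 13 mitochondrially encoded genes, all of which reached 14 cells, the most complete lists were those of growth and of release. All 27 genes of the growth cytoskeleton reached 14 cells and 22 of them all 28, with a median over genes of 855 TPM. Tuba1a, the tubulin of young neurons, lay at a median of 8601 TPM, the thymosin Tmsb4x at 12030, Stmn1 at 4943 and Gap43, of growth cones, at 1827. Dcx, the doublecortin of migrating neurons, was found in 27 cells. Reads of close tubulin, actin and thymosin copies can be assigned to one another, so levels within these families are uncertain. Of 24 genes of synaptic vesicle release, 20 reached 14 cells (83.3%), with Rab3a (820 TPM), Vamp2 and Syt11 in all cells and Snap25 in 26. Vamp1, a synaptobrevin of the mature nervous system, was found in 4. Of 24 synaptic adhesion genes 14 reached 14 cells (58.3%), Cadm1, Cadm2 and Nlgn1 being found in 27 each.

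Of 20 migration and guidance genes, 7 reached 14 cells (35.0%). Ncam1 was found in all 28, Epha5 in 27 and Plxna4 in 23, while Erbb4, the neuregulin receptor that guides MGE cells, was found in 14 and the chemokine receptor Cxcr4 in 1. Of 16 genes of developmental cell death 5 reached 14 cells (31.2%). Bax, needed for interneuron death, was found in 18 cells (median 96.2 TPM), with the protective Bcl2l1 in 15 and Bcl2 in 4.

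**Figure D2:**
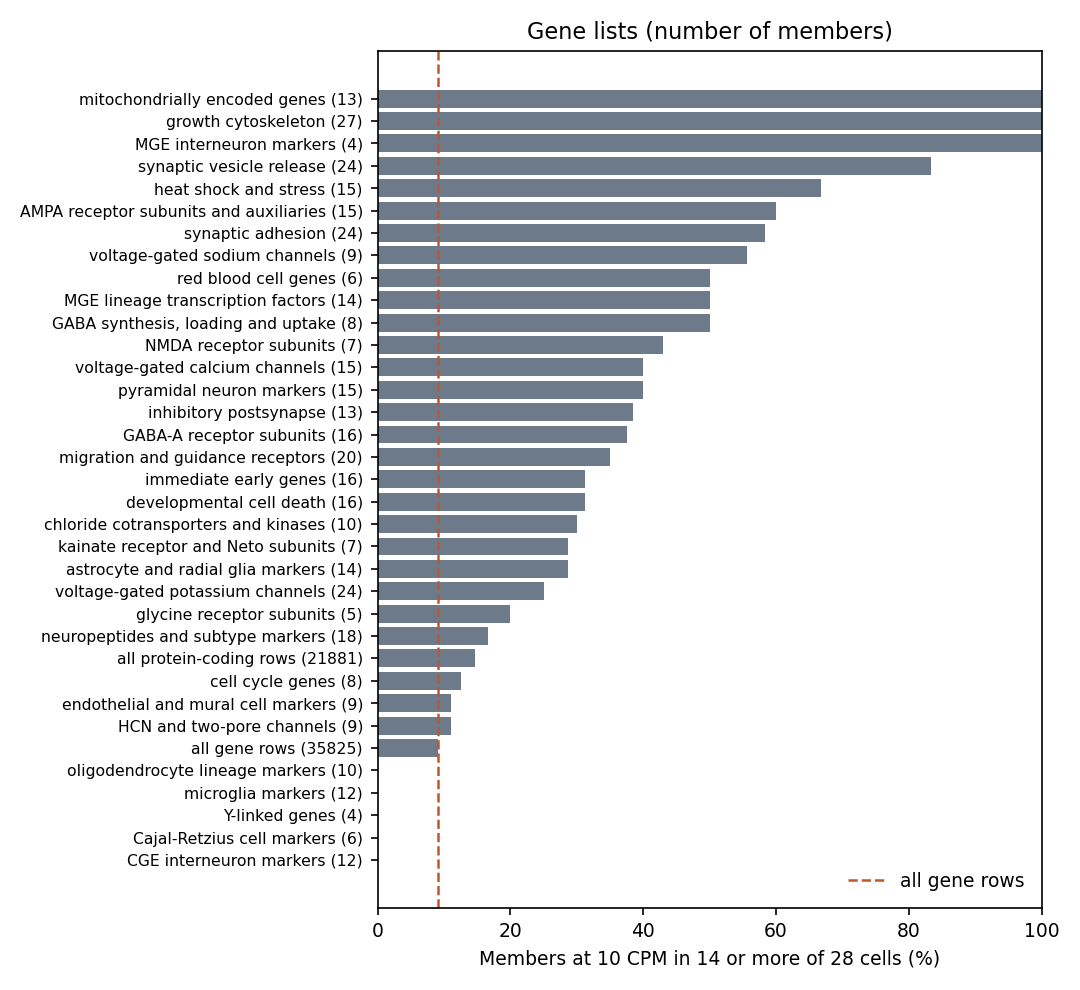
Share of each gene list's members found at 10 CPM in 14 or more of the 28 cells, with the number of members in brackets and a dashed line at 9.13%, the share for all gene rows. The share for protein-coding rows was 14.7%. Growth cytoskeleton, mitochondrially encoded and MGE marker genes reach 100%, vesicle release 83.3%, and markers of caudal interneurons, microglia, oligodendrocytes and Cajal-Retzius cells 0%.

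Over all 35825 gene rows, 14440 (40.3%) were found in at least 1 cell, 3271 (9.13%) in 14 cells or more and 207 (0.578%) in all 28. A further 2802 rows were found in 1 cell only. The 207 genes took a median of 27.9% of a cell's counts and the 3271 took 78.8%. Protein-coding genes were 202 of the 207. Detection followed level: genes with a mean of 10 to 30 CPM were found in a median of 6 cells, those of 100 to 300 CPM in 19 and those of 1000 to 3000 CPM in 28. At 100 to 300 CPM the count of cells still ran from 6 to 28, so genes of like mean differed widely in how many cells shared them.

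**Figure D3:**
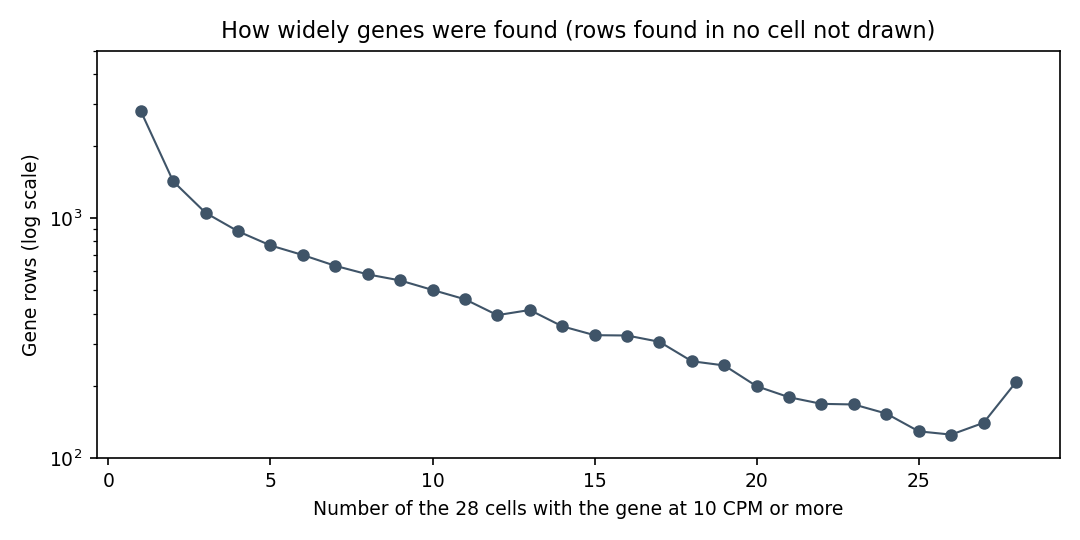
Each point is the number of gene rows (log scale) against the number of cells in which they reached 10 CPM, leaving out the 21385 rows found in none. The count falls from 2802 rows found in 1 cell to 125 found in 26 cells, then rises to 207 found in all 28.

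Genes found in some cells and not in others had medians far apart above and below the limit. For the 5717 genes found in 7 to 21 cells, values at or above the limit had a median of 95 CPM and those below it 0.802 CPM. Of all their values, 5.68% were 0, 25.7% lay above 0 and under 1 CPM, 24.1% from 1 to under 10, 23.1% from 10 to under 100 and 21.5% at 100 CPM or more. The low values rose with the level in the cells at the limit. Genes averaging 30 to 100 CPM where found had a median of 0.541 CPM elsewhere (0.754% of that average), those of 100 to 300 CPM 0.962 CPM (0.602%), and those of 300 to 1000 CPM 2.51 CPM (0.712%). All 28 cells had at least 1 CPM of Lhx6, Gad1, Gad2 and Npy, so the lower limit would count every cell as having all 4. Of genes typical of other cells, Neurod6 reached 1 CPM in 24 cells and Hba-a1 in 27, while the caudal interneuron markers Prox1 and Htr3a did so in none. Pvalb, the gene of mature basket cells, also reached 1 CPM in none. Whether these low values are transcripts of the cell itself or reads assigned from other libraries was not tested, so a value under 10 CPM is not read here as expression.

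Among the most abundant rows per length were Gm19220 (median 71231 TPM), Tmsb4x, Tuba1a, Lars2 (8389), Ubb (7457), mt-Atp6 (6029), Ppia, mt-Co3, Ftl1, Calm2, Stmn1, Gm29216, Usmg5 and mt-Co2. Gm19220 is annotated as a processed pseudogene and Gm29216 as an unprocessed one, and Lars2 encodes the mitochondrial leucyl-tRNA synthetase. Gm19220 and Lars2 together took 0.586 to 29.6% of a cell's counts (median 5.55%), lowest in WT male cell 19 and highest in WT male cell 3. Their share had little relation to the number of genes found (Spearman rho 0.120 over the 28 cells). The 13 mitochondrially encoded genes took 0.149 to 4.71%.

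Cell-to-cell spread fell as level rose, from a median CV of 1.21 for genes with a mean of 100 to 300 CPM to 0.446 for those of 3000 CPM or more. Among the 207 genes found in all cells the median CV was 0.568, against 1.21 for the 3271 found in 14 cells or more. The 10 lowest, with Gm and Rik names passed over, were Ywhaz (0.241), Ubb (0.268), Map1b (0.283), Tuba1a (0.291), Cfl1 (0.302), Tubb2a, Hsp90ab1, Eif1, Eif4g2 and Hspa8 (0.362). They encode a 14-3-3 protein, a ubiquitin precursor, cytoskeletal proteins, translation factors and chaperones. Ywhaz lay at 1482, 2261 and 3404 CPM in females and 1305, 2515 and 3735 CPM in males, a narrow band next to that of Npy.

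Spread was highest for its level in a set that includes 6 genes best known from other cells. The 10 genes with the largest CV relative to genes of like mean were Hba-a2 (3.68 times), Ccl4 (3.20), Apoe (2.73), Hbb-bs, Fabp7 (2.44), Efr3a, Hba-a1, Abcd3, Rab4a and Camk2n2. Hba-a2, Hba-a1 and Hbb-bs are haemoglobin genes of red blood cells, Ccl4 is a chemokine of microglia, and Apoe and Fabp7 are typical of astrocytes and radial glia. Apoe lay at 1.45, 32.2 and 3318 CPM in females and 11, 277 and 5539 CPM in males, with WT male cell 16 holding 32.6% of the total. Of the genes found in all cells, Zbtb20 (CV 1.62) and Nrgn (1.34), a transcription factor and a calmodulin-binding protein that are abundant in CA1 pyramidal cells, varied most. Zbtb20 was highest in WT female cell 7, at 2970 CPM. That cell had 2 of 15 pyramidal markers at the limit and the largest astrocyte and radial glia sum, 10761 CPM. The spread of Zbtb20 is therefore not read as pyramidal RNA.

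**Figure D4:**
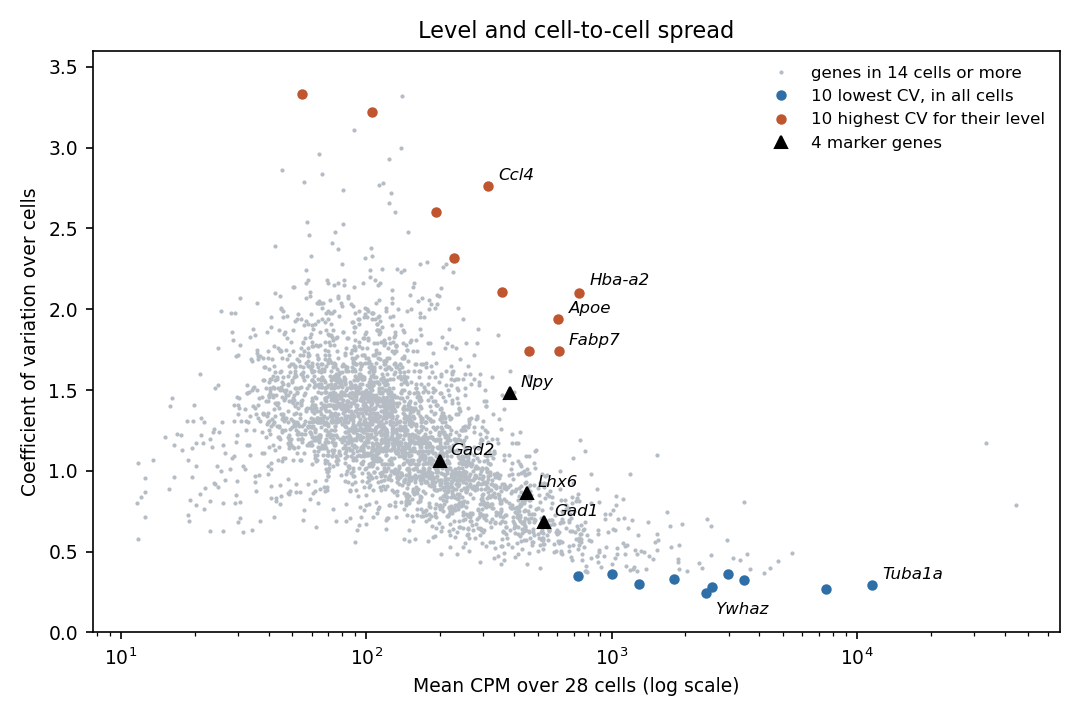
Mean CPM (log scale) against the coefficient of variation over 28 cells for genes found in 14 cells or more, with the 10 lowest values among genes in all cells in blue, the 10 highest relative to genes of like mean in orange and the 4 markers as black triangles. Spread falls as level rises, Ywhaz at 0.241 and Hba-a2 at 2.10 lie at opposite sides, and Npy (1.48) lies above Gad1 (0.683).

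The cells were alike only in part. Over the 3271 genes, the rank correlation of 2 cells on log2(CPM + 1) had a median of 0.343 over 378 pairs, from 0.208 (WT female cell 3 with WT male cell 12) to 0.648 (WT male cells 4 and 19). These pairs share cells and a gene set, and the values describe the libraries.

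Transcripts of other cell types were present in cells that carry no contamination mark. Of 15 pyramidal neuron markers, 6 reached 14 cells, and 9 cells had 8 or more of them. Their summed level was 178, 982 and 3218 CPM in females and 149, 1099 and 4400 CPM in males. The highest female sum was that of WT female cell 7, which had 2 of the 15 markers at the limit and Zbtb20 at 2970 CPM. That sum therefore rests mostly on 1 gene. At least 1 of Neurod6, Slc17a7 and Slc17a6, which mark glutamatergic cells, was found in 18 cells. Emx1 was found in 1 cell. Lmo3, found in 16 cells, is on this list but is also known from interneurons. The part of pyramidal RNA in any result was not tested.

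Red blood cell genes were nearly universal, with a haemoglobin gene found in 27 cells and in all but WT male cell 4. Their summed level was 255, 530 and 1594 CPM in females and 2.75, 367 and 13445 CPM in males. Astrocyte and radial glia markers summed to 51.1, 357 and 10761 CPM in females and 91.8, 950 and 9480 CPM in males, mostly through Apoe, Fabp7 and Slc1a3. WT male cells 1, 3 and 7 had at least 7 of the 14. Aqp4 was found in 1 cell, Gfap in 2 and Gjb6 in none. The largest sums were those of WT female cell 7 and WT male cell 16, 2 of the cells with few genes and few markers.

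Microglia markers were concentrated in few cells. WT female cell 6 had 10 of 12, WT male cells 6 and 10 had 8 each, and 14 cells had none, while Tmem119 was found in no cell. Of 10 oligodendrocyte markers none reached 14 cells, and Olig2, Sox10, Mog and Mobp were found in none. Of 9 endothelial and mural markers, Pecam1 was found in 26 cells, Kdr in 2, and Cldn5, Flt1, Pdgfrb and Rgs5 in 1 each, while Cdh5, Tek and Kcnj8 were found in none. Their summed level ran from 3.36 to 512 CPM, highest in WT male cell 1, and no cell had more than 2 of them. Without the 6 cells that had 50% or more of the members of a glial or microglial list, 20 of 22 cells had Lhx6 and 20 had Gad1. That count of members kept WT female cell 7 and WT male cells 16 and 20, which had the largest summed level of these lists. Without the 6 cells of largest summed level (3150 CPM or more), 21 of 22 had Lhx6, 21 had Gad1 and 12 had all 4 markers, and the genes found in every cell rose from 207 to 316. Without the 9 cells rich in pyramidal markers, 17 of 19 had Lhx6 and 13 had all 4 markers, and 2292 genes were found in 50% of the cells or more. Without the 5 cells of few genes, 22 of 23 had Lhx6 and 22 had Gad1, and the genes found in every cell rose from 207 to 370.

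**Figure D5:**
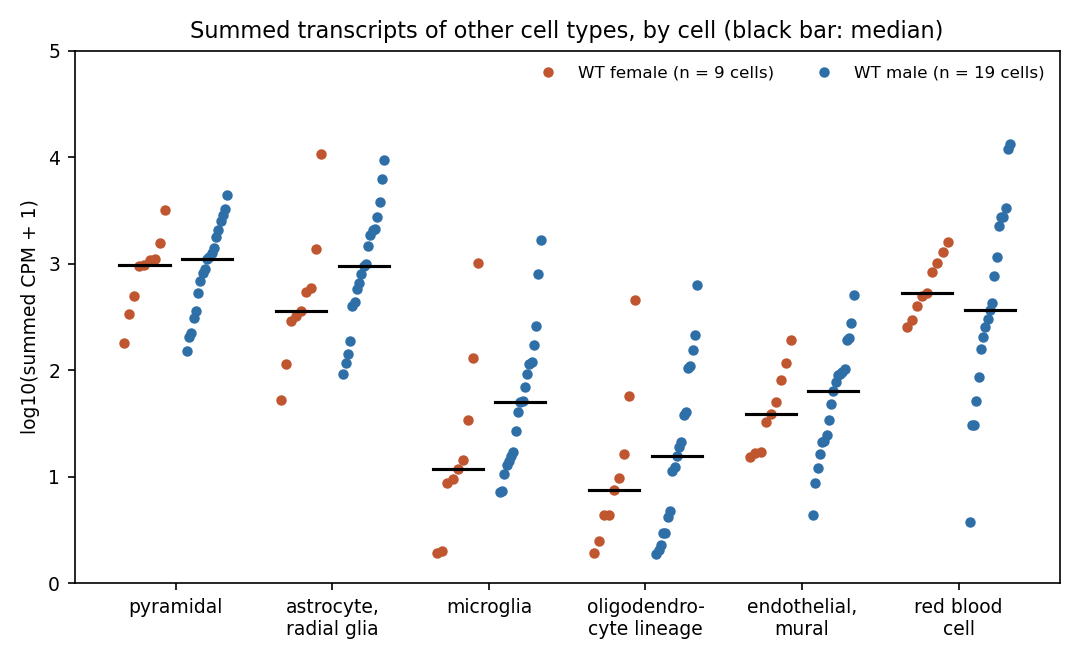
Summed CPM of the markers of 6 other cell types in each cell, as log10(sum + 1), with female cells in orange, male cells in blue and a black bar at each group's median. Red blood cell and glial sums run over orders of magnitude, up to 13445 and 10761 CPM, while both sexes overlap for every list.

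Genes that respond to activity or handling were found unevenly. Of 16 immediate early genes 5 reached 14 cells (31.2%), and 8 cells had 50% or more of the list. Fos was found in 21 cells (3.16, 251 and 1765 CPM in females; 1.96, 363 and 1590 CPM in males), and Fos with Egr1 in 14. Arc was found in 3 and Npas4 in 2. Of 15 heat shock and stress genes 10 reached 14 cells (66.7%). Their sum ran from 3547 to 11176 CPM, mostly through the constitutive Hspa8, Hsp90aa1 and Hsp90ab1, and the inducible Hspa1a was found in 2 cells. Of 8 cell cycle genes, 7 were found in 4 cells or fewer. Mki67, a marker of dividing cells, was found in WT male cell 3, the one cell with 50% or more of the list, and Pcna, also used in DNA repair, in 14 cells.

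The sex labels were checked with Y-linked genes. Ddx3y or Eif2s3y was found in 0 of 9 female cells (interval 0 to 33.6%) and in 12 of 19 male cells. Kdm5d and Uty did not separate the sexes. Kdm5d reached 98.7 CPM in WT female cell 4 and 55.4 CPM in WT female cell 5, and Uty 17.8 CPM in WT female cell 3. At least 1 of the 4 genes was found in 5 female and 14 male cells, so the check rests on the first pair alone. All 4 genes have close copies on the X chromosome, so reads can be assigned wrongly, which was not tested.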

How the data were processed

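Single cells were aspirated from acute slices and made into Nextera XT libraries. Reads were quantified with kallisto on GRCm38, per the submitters' processing notes, with no version given. The authors deposited expected counts by gene symbol in a pair of tables, before and after a quality filter whose criterion is not given in the sources used here. The counts of the 28 cells were identical in both. The deposited normalized table holds TPM, checked by column sums of 1000000. Columns of other samples (44 in each filtered table, 52 before the filter) were not used. Of 35825 rows, 35338 matched GENCODE M21 by symbol.

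CPM was computed from the expected counts and the column sums, unrounded, with no further filter. TPM was used to compare genes, CPM to compare cells. Spread is the coefficient of variation of CPM, also taken relative to the median of 20 bins of mean CPM. The coefficient itself, not the relative one, was tested on simulated data. A cell's number is its place within its group in label order. Reads carry no molecular identifiers and copies made by PCR are not independent, so intervals cover counting error only. Python 3.11.15, pandas 2.3.3 and scipy 1.17.1 were used. Sequences are from RefSeq (GRCm38.p6).

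The cells, gene lists and alternatives were chosen with earlier results of these data known. Named genes were the 4 markers, the 15 rows of highest median TPM, up to 4 members of each list by median TPM with Gphn, Pvalb and Sst, the 10 lowest CVs among genes in all cells and the 10 highest relative CVs, passing over Gm and Rik names in the last 2 sets. List members named besides these were chosen after their values were seen. Several genes picked this way are not reported here.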

Additional observations from a re-analysis of the deposited data

Results flagged for a closer look

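Among 22 quantities of the 9 WT female cells, 2 had a lowest cell set apart from the others by Dixon's criterion at 95% (the gap to the next cell as a share of the group's range, on the log2 scale). Chance gives about 1 in 20 groups. The criterion takes the cells as independent, which the labels do not show, and serves here only to point at cells. WT female cell 8 had 17.4 CPM over the 16 immediate early genes, against 435 CPM in the next lowest cell, a gap of 0.532 of the range. WT female cell 7 had 2.67 CPM of Lhx6, against 193 CPM in the next lowest cell, a gap of 0.681. Cell 7 also had the fewest genes and the largest summed astrocyte and radial glia level of the 9, 10761 CPM. The male group, with 19 cells, is too large for this criterion.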

How the results depend on the processing

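The detection limit moved the results most. At 1 CPM, 1366 genes were found in all cells, 6229 in 50% of the cells or more, a cell had a median of 7220, and Lhx6, Gad1, Gad2, Npy and all 4 markers were each found in 28 cells. At 10 counts these were 982, 5274, 6084, 28, 28, 27, 28 and 27. Whether values this low are reads of other libraries was not tested, so these counts are not shares of cells expressing the markers. At 25 CPM 133 genes were found in all cells. At 100 CPM the values were 72 in all cells, 1357 in 50% or more, a median of 2303, and Npy in 17 cells. In the WT female cells alone 367 genes were found in all 9 cells, and Gad1 in all 9; without the 5 cells under 2500 genes, 370 genes were found in all 23, and without the 6 cells of the largest summed glial, microglial and vascular level, 316 in all 22 (both chosen after seeing the data). Of 140 values under 14 alternatives, 115 stayed within 1.5 times (genes, median CV), the interval (cells) or 1 SD (median genes), and 25 moved. A limit of 10 TPM, another denominator and thinning each cell to 3543654 counts moved none. The same held for WT male cells alone and for leaving out cells by the number of glial or pyramidal list members found. The table before the filter holds identical counts for these cells, so its values, included in the 115, could not move and carry no information.

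Leaving out 1 cell at a time gave 207 to 247 genes in all cells, 2960 to 3210 in 50% or more, 14148 to 14427 in at least 1 and a median of 4117 to 4241. Markers were found in 25 to 26 cells (Lhx6, Gad1), 18 to 19 (Gad2), 24 to 25 (Npy) and 15 to 16 (all 4), and the median CV was 1.16 to 1.2. No paired analysis was possible because a cell's number is only its place in label order and names no animal, and no groups were compared by a test. Cells of 1 animal cannot be told apart from cells of several, so spread between animals is not measured here.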
